A study of Mus musculus with 37 samples.

Results

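The genes described here encode the secreted Wnt proteins, the receptors that bind them, the secreted proteins that block them, the R-spondins that amplify them, and Axin2, a feedback gene of the pathway. Members were picked out by a rule on gene symbols, set with earlier results of these data known, and 47 of the 24421 symbols in the count table met the rule. They comprised 19 Wnt ligands, 12 receptors (the Frizzled receptors with the co-receptors Lrp5 and Lrp6), 10 secreted inhibitors (Sfrp and Dkk genes, Frzb and Wif1), 5 genes of the R-spondin branch (Rspo1 to Rspo4 and their receptor Lgr5) and 1 feedback target, Axin2. All 37 libraries came from wild-type female BALB/c mice, and no genetic manipulation separated the groups. Mice received N-butyl-N-(4-hydroxybutyl) nitrosamine (BBN), a carcinogen of the urinary tract, or tap water for 18 weeks; the labels gave no ages. UT denotes the ureter in which BBN had induced cancer (11 libraries from 10 mice, with mouse 5 contributing both sides), UN the opposite ureter without cancer (7 libraries from 7 of those mice), and U the ureter of mice given tap water (6 libraries, both sides of 3 mice). The bladders of the 10 BBN mice gave 10 libraries, and the bladders of the 3 tap water mice gave 3. Both ureters of a tap water mouse entered the tests as separate libraries, so p-values against U rested on only 3 animals.

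Wnt proteins are lipid-modified signals that act over short distances. A Wnt bound to a Frizzled receptor and to Lrp5 or Lrp6 prevents the destruction of beta-catenin, which then enters the nucleus and switches on target genes together with TCF/LEF factors; other Wnts, of which Wnt5a is the best known, act mainly through Frizzled without beta-catenin and guide cell polarity and movement. Sfrp proteins, Frzb and Wif1 bind Wnt proteins outside the cell, Dkk proteins of the Dkk1 type bind the co-receptors, and R-spondins act through Lgr receptors to keep Frizzled on the surface. In the bladder, Wnt signals pass between the urothelium, the epithelium lining the urinary tract, and the stroma beneath it.

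Promoter sequences are shown first for some of the members that changed: Wnt4, Wnt2, Wnt7a and Frzb, which were higher in both kinds of BBN ureter than in U, and Fzd4, which was lower in UT. That of Axin2, which was not called in UT against U, is shown as the feedback gene. Each runs 5′ to 3′ on the strand of its gene over 300 bases, most of them upstream of the RefSeq start (build GRCm38.p6). The windows were chr4:137277385-137277684 on the plus strand for Wnt4, chr6:18030396-18030695 on the minus strand for Wnt2, chr6:91411304-91411603 on the minus strand for Wnt7a, chr2:80447347-80447646 on the minus strand for Frzb, chr7:89404116-89404415 on the plus strand for Fzd4 and chr11:108920099-108920398 on the plus strand for Axin2. Capitals mark the TCF/LEF core CTTTGA and the GC box GGGCGG, each searched on both strands (TCAAAG and CCGCCC).
Wnt4: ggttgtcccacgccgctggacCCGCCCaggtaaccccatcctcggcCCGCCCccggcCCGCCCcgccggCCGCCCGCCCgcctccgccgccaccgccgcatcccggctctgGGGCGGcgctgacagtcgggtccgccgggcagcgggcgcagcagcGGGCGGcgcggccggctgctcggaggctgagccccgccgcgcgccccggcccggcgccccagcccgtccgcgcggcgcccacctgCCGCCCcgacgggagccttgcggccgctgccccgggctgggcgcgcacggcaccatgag
Wnt2: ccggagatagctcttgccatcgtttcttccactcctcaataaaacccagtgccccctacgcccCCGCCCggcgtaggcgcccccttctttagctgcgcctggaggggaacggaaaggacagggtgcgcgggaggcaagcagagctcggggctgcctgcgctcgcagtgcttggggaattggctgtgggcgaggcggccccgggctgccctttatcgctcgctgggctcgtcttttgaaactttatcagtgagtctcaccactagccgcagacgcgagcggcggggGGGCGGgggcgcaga
Wnt7a: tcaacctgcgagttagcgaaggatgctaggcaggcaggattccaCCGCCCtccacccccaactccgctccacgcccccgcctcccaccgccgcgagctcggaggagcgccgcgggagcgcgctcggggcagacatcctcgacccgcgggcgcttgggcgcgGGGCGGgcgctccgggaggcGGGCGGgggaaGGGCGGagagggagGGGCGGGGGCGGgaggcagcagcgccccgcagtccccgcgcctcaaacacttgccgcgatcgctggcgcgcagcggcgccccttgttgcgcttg
Frzb: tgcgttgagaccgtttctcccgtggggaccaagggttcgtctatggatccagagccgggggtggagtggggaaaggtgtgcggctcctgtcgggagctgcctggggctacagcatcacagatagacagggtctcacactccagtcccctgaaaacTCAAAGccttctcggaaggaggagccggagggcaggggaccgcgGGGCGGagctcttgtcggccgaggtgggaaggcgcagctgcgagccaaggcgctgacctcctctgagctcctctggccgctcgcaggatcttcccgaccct
Fzd4: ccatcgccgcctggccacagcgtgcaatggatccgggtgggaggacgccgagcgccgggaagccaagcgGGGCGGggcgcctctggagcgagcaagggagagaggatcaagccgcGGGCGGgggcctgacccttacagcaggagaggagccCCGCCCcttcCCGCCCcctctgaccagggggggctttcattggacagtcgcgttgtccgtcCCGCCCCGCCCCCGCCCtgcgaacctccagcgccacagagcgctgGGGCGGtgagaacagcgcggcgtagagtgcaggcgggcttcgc
Axin2: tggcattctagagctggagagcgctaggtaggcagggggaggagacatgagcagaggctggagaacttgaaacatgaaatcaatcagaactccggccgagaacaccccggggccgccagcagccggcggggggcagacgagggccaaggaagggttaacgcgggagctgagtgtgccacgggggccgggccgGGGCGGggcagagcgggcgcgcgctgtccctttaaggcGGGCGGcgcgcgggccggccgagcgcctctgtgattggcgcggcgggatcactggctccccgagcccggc
The RefSeq table matched 30 of the 47 members, with 33 windows, and did not match Wnt10a, Wnt5a, Wnt7b or Rspo3. The GC box was in 35.7% of all 32851 promoter windows and in 25 of the members' 33 (75.8%), and Wnt4 and Fzd4 each held 8 copies, Wnt7a 6, Wnt2 and Axin2 2 each, and Frzb 1. The TCF/LEF core was in 16% of all windows and in 5 of the members' 33 (15.2%), and of these 6 promoters only that of Frzb held it, once. A match describes these letters only and was not tested as a binding site.

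Levels are given as CPM, the deposited estimated count of a gene per 1000000 counts of its library; fold changes were fitted with TMM scaling, a correction for composition that CPM does not have. Library totals ran from 9724542 to 16735797 counts in UT and from 12980008 to 18793560 in U, whereas UN 6 (4675081) and BBN bladders 1, 3 and 4 (3557697 to 7820510) fell below 9000000, and the study lists low RNA integrity for low-total libraries. Of the members, 7 were higher in all 3 of these bladders than in any of the other 7 BBN bladders, 12 were lower and 28 overlapped. The share among all genes was not counted, so these numbers do not set the members apart from other genes. The main bladder results are given with and without those 3 bladders. UN 2 held urothelial markers (10 genes, from uroplakins to Krt5) at a summed 27.0 CPM, against 955 to 6207 CPM in the other UN libraries, and UT 4 held kidney tubule markers (7 genes) at 2251 CPM, against at most 17.4 CPM in the other ureters and 42.2 CPM in the bladders. Adipocyte markers (5 genes) summed to 9796 to 13836 CPM in U, 1522 to 8946 in UN and 7.56 to 6600 in UT, and urothelial markers to 1455 to 2958 CPM in U, 1065 to 8039 in UT and 20235 to 21124 in untreated bladder. Within the urothelial list, the uroplakins had lower means in UT than in U (Upk1a 17.3 CPM in UT and 288.6 in U). The other genes of the list had higher means in UT (Krt5 1142 CPM in UT and 119 in U). In such bulk tissue, fewer cells of a type and less RNA per cell cannot be told apart, and the part of tissue composition in the member results was not tested.

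The identity of the leading ligand differed between untreated and BBN tissue. To compare genes with one another, CPM were divided by exon length in kilobases (RPKM). Wnt5a, the ligand linked to signaling without beta-catenin, ranked first among the 19 ligands in 6 of 6 U libraries and in all 3 untreated bladders. Wnt4, a ligand that drives tubule formation in the developing kidney, ranked first in 6 of 7 UN, 7 of 11 UT and 7 of 10 BBN bladder libraries. Counted library by library, the RPKM of Wnt4 exceeded that of Wnt5a in 0 of the U and untreated bladder libraries, in 6 UN, in 10 UT and in 10 BBN bladder libraries.

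**Figure D1:**
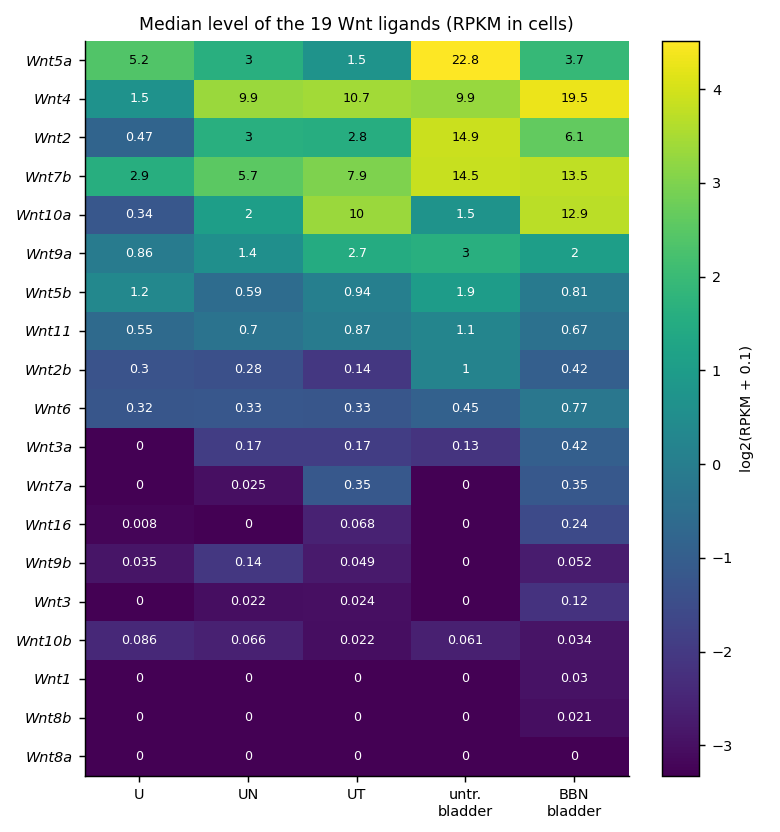
Median RPKM of each Wnt ligand (rows) in the 5 groups (columns), with the colour on a log2(RPKM + 0.1) scale and the median printed in each cell. Wnt5a is the brightest cell of the U and untreated bladder columns, and Wnt4 of the UN, UT and BBN bladder columns.

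By median RPKM the order of the ligands in U was Wnt5a (5.16), Wnt7b (2.93) and Wnt4 (1.49), and in UT it was Wnt4 (10.7), Wnt10a (10.03) and Wnt7b (7.85). These 3 were close to one another in UT, where Wnt10a ranked first in 3 libraries and Wnt5a in 1. Untreated bladder had Wnt5a (22.8), Wnt2 (14.9) and Wnt7b (14.5) at the top, and BBN bladder Wnt4 (19.5), Wnt7b (13.5) and Wnt10a (12.9). Among the receptors Fzd4 led in U (9.43) ahead of Fzd1 (7.97), and Fzd1 led in UT (13.4) ahead of Fzd6 (9.51). Dkk3, a Dkk family protein whose relation to Wnt signaling is the least settled, had the highest median RPKM of the secreted inhibitors in every group, from 13.3 in U to 55.4 in untreated bladder.

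The comparison of UT with U asked which Wnt genes differed in the cancerous ureter. The ligands Wnt4, Wnt10a, Wnt7a, Wnt7b, Wnt2 and Wnt9a and the inhibitor Frzb were among the members higher in UT, and Wnt5a, Rspo3, Fzd4 and Fzd3 were lower. Of the 35 members that passed the filter on low counts, 10 were called higher and 5 lower by edgeR (adjusted p below 0.1 and a fold change of at least 2), against 30.9% of all 15658 genes tested called in either direction, 18.7% higher and 12.3% lower. The median log2 fold change was 0.33 over the members and 0.11 over all genes tested.

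Wnt4 lay at 5.0 to 8.96 CPM in U (median 6.25) and at 8.88 to 147 CPM in UT (median 44.9). Only UT 9 fell within the U range, and the log2 fold change was 2.78 ± 0.58 (SE; adjusted p = 0.000738, edgeR). Wnt10a, an epithelial ligand active in skin, teeth and hair, rose from 0.682 to 1.40 CPM in U (median 0.837) to 4.19 to 93.0 CPM in UT (median 24.8). All 11 UT libraries exceeded all 6 U libraries, with a log2 fold change of 4.81 ± 0.79 (adjusted p = 0.000116). Wnt6, which lies 6194 bases from Wnt10a on chromosome 1 on the same strand, had a median of 0.711 CPM in U and 0.727 in UT and a log2 fold change of 0.03 ± 0.57 (adjusted p = 0.974).

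Wnt7a, an epithelial ligand of the female reproductive tract and limb, was near absent from U, with 4 counts in all and 4 of 6 libraries at 0. UT ranged from 0 to 8.74 CPM (median 1.11), 9 of 11 libraries exceeding every U library. The log2 fold change was 5.27 ± 1.40 (adjusted p = 0.0043), a value that depends on the near-zero U level. Wnt7a passed the filter on low counts only through the BBN ureters, so this p-value adds no support beyond the counts. Wnt2, a stromal ligand of lung and bladder, had 0.682 to 1.81 CPM in U (median 1.06) and 1.03 to 16.0 CPM in UT (median 6.39), and UT 9 alone overlapped U (log2 fold change 2.47 ± 0.54, adjusted p = 0.00104). Wnt7b, a paralog of Wnt7a, was at 6.91 to 15.8 CPM in U (median 14.3) and at 8.45 to 78.0 CPM in UT (median 38.5). UT 9 was again the library inside the U range, and the log2 fold change was 1.44 ± 0.53 (adjusted p = 0.0315).

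Wnt5a was the tested ligand with the largest decrease. Its level was 31.5 to 54.0 CPM in U (median 40.4) and 4.17 to 41.7 CPM in UT (median 12.0). UT 6 alone reached the U range, and the log2 fold change was -1.84 ± 0.42 (adjusted p = 0.00147). Smooth muscle markers (7 genes) were also lower, at 1739 to 3258 CPM in U (median 2732) and 236 to 2477 CPM in UT (median 775), with UT 6 the highest UT library, and their part in the result was not tested. Wnt2b, at 1.01 to 1.81 CPM in U (median 1.26) and 0.294 to 2.22 CPM in UT (median 0.595), also fell (log2 fold change -1.05 ± 0.36, adjusted p = 0.0201), and Wnt9a rose (1.21 ± 0.40, adjusted p = 0.0184).

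**Figure D2:**
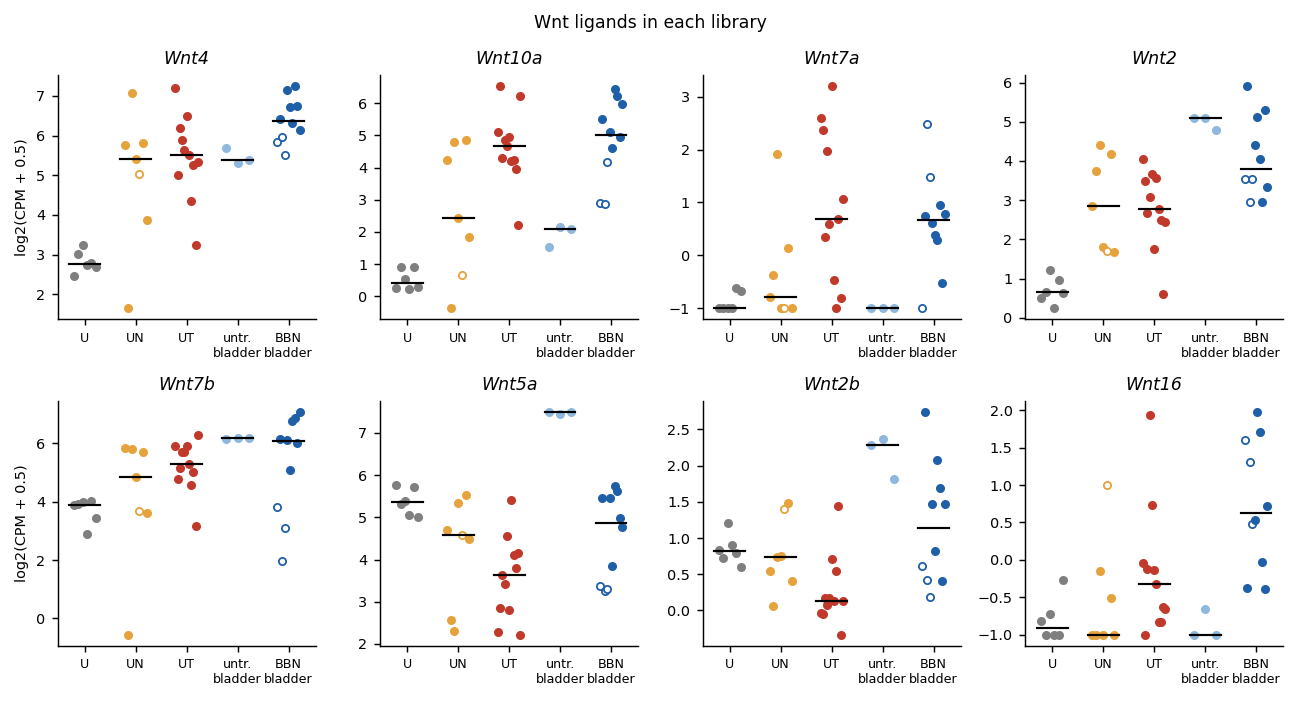
log2(CPM + 0.5) of 8 Wnt ligands in every library, by group; each point is 1 library, open points are libraries under 9000000 counts and black bars are medians. All UT points for Wnt10a lie above all U points, and all BBN bladder points for Wnt5a lie below the untreated bladder points.

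The receptors moved in both directions in UT. Fzd6, which has a role in planar cell polarity, was at 11.7 to 22.3 CPM in U (median 17.4) and at 23.2 to 102 CPM in UT (median 45.8). The groups did not overlap (log2 fold change 1.44 ± 0.37, adjusted p = 0.0033). Fzd5 rose by a smaller amount, close to the fold threshold (1.01 ± 0.27, adjusted p = 0.00511), and its call was lost when any of 9 libraries was left out in turn. Fzd4, the receptor through which norrin and Wnts act on blood vessels, was at 40.5 to 77.3 CPM in U (median 63.3) and 3.32 to 68.9 CPM in UT (median 26.1). All UT libraries but UT 9 were below the U range, and the log2 fold change was -1.53 ± 0.44 (adjusted p = 0.00776). Endothelial markers (4 genes) were at 155 to 384 CPM in U (median 315) and at 63.3 to 546 CPM in UT (median 150), UT 9 being the highest and UT 1 the lowest UT library for both these markers and Fzd4, and their part in the result was not tested. Fzd3, a polarity receptor, was at 11.3 to 16.0 CPM in U (median 14.9) and at 1.30 to 9.66 CPM in UT (median 8.58), with no overlap (-1.31 ± 0.34, adjusted p = 0.00362). The co-receptors were not called: Lrp5 differed by 0.22 ± 0.46 (adjusted p = 0.723) and Lrp6 by -0.55 ± 0.22 on the log2 scale (adjusted p = 0.0489, under the fold threshold).

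Among the secreted inhibitors, Frzb and Dkk3 were called higher in UT, of 8 tested. Frzb, which binds Wnts and was first known from cartilage, was at 1.36 to 3.06 CPM in U (median 2.38) and at 1.01 to 65.0 CPM in UT (median 28.2). The UT libraries were not uniform: 9 exceeded every U library, UT 10 was at 2.84 CPM and UT 2 at 1.01 CPM, below every U library. The log2 fold change was 3.29 ± 0.65 (adjusted p = 0.00043). Dkk3 was at 31.3 to 55.0 CPM in U (median 44.8) and 59.2 to 242 CPM in UT (median 145), without overlap (1.48 ± 0.43, adjusted p = 0.00747), but was not called when the ureters of a mouse were summed (1.43, adjusted p = 0.104). Some inhibitors that were not called were uneven in UT: Wif1 ran from 0.072 to 30.2 CPM and Sfrp2 from 2.02 to 83.4 CPM. Sfrp4, a stromal inhibitor, ran from 6.28 to 208 CPM (median 90.5), on both sides of the U range of 25.8 to 72.7 CPM (median 45.0; 0.91 ± 0.67, adjusted p = 0.273).

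Rspo3, a stromal and endothelial R-spondin, was the tested member with the largest decrease in UT. U lay at 5.76 to 11.2 CPM (median 9.11) and UT at 0 to 6.41 CPM (median 1.11). All UT libraries but UT 8 were below the U range, and the log2 fold change was -2.46 ± 0.60 (adjusted p = 0.00229). Rspo1 ranged from 2.74 to 12.6 CPM in U (median 5.38) and from 0.144 to 14.4 CPM in UT (median 2.02), a spread within which no change was called (-0.93 ± 0.61, adjusted p = 0.22). Axin2 was at 2.17 to 2.77 CPM in U (median 2.29) and at 0.636 to 3.26 CPM in UT (median 1.58). UT libraries thus lay on both sides of U, 7 below and 1 above its range, and Axin2 was not called (-0.69 ± 0.51, adjusted p = 0.283). Lgr5, an R-spondin receptor that marks stem cells of the gut, had 1.24 to 4.63 CPM in U and 0.753 to 4.51 CPM in UT (medians 2.71 and 2.46; -0.61 ± 0.51, adjusted p = 0.343).

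**Figure D3:**
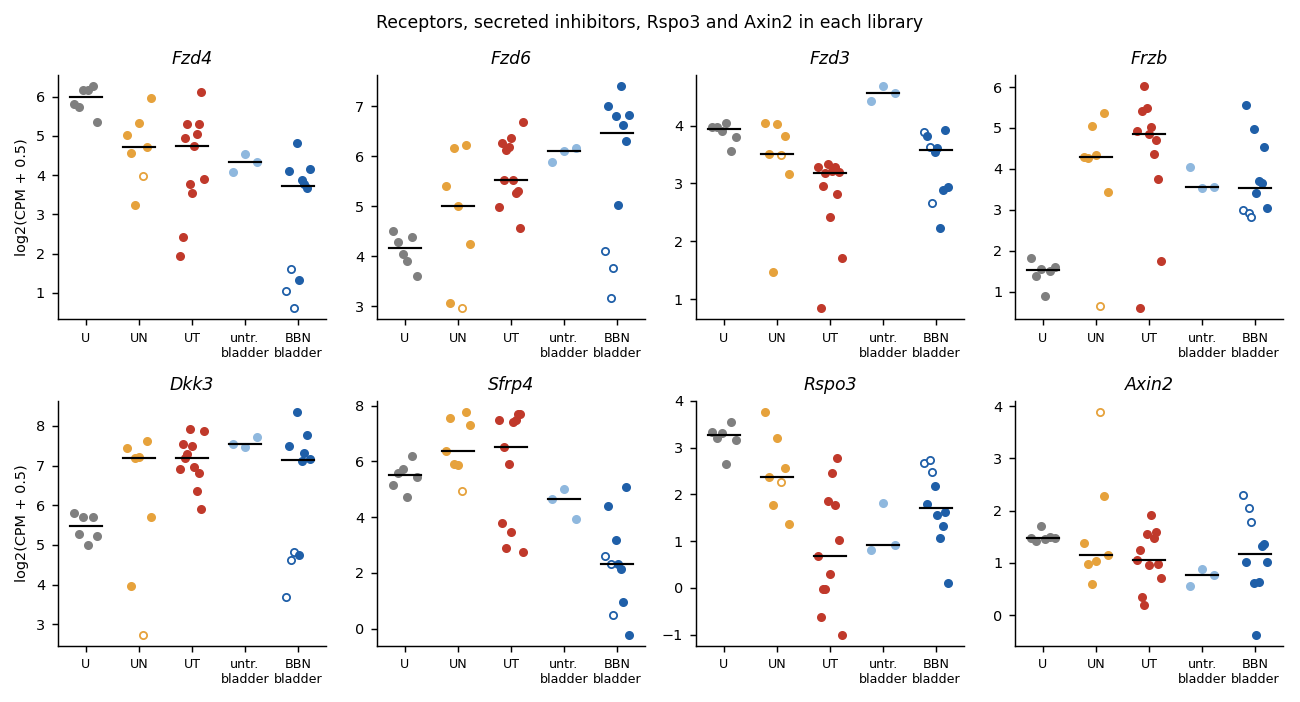
log2(CPM + 0.5) of 3 receptors, 3 secreted inhibitors, Rspo3 and Axin2 in every library, drawn as in the plot of the ligands. Rspo3 lies lower in UT than in U, Frzb higher in all UT libraries but UT 2 and UT 10, and UN 6 (open) is the highest Axin2 point.

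The noncancerous ureter of BBN mice was compared with the same U libraries, so its results are not independent of those for UT. Wnt10a, Wnt4, Wnt2, Wnt7a, Wnt9b and Frzb were higher in UN than in U, and no member was called lower. In numbers, 6 of 35 members rose, against 13.7% of all genes called in either direction, 12.5% higher and 1.21% lower; of the members, 10 were higher and 1 lower at an unadjusted p below 0.05, and the 0 calls of a decrease by edgeR were 0 also by DESeq2 and limma-trend. The median log2 fold change was 0.61 over the members and 0.13 over all genes.

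Wnt2 ranged from 2.69 to 20.6 CPM in UN (median 6.75), above the U range in all 7 libraries (log2 fold change 2.98 ± 0.58, adjusted p = 0.0024, edgeR). Wnt4 ranged from 2.63 to 135 CPM (median 41.6), with UN 2 below and the other 6 libraries above the U range (2.76 ± 0.61, adjusted p = 0.00555). Wnt10a ranged from 0.274 to 28.3 CPM (median 4.92), 5 of 7 libraries being above U (3.41 ± 0.77, adjusted p = 0.00643). Frzb was at 1.07 CPM in UN 6 and at 10.3 to 40.4 CPM in the other 6 libraries (3.01 ± 0.66, adjusted p = 0.00555). Wnt7a (3.57 ± 1.43, adjusted p = 0.0983) and Wnt9b (2.09 ± 0.82, adjusted p = 0.0928) were near the threshold, and each lost its call when some single libraries were left out, Wnt7a in 12 of 24 fits and Wnt9b in 9 of 23. Wnt7a had a median of 0.0803 CPM in UN, with 3 of 7 libraries above the U range. UN 3 held 3.27 CPM and the next library 0.605 CPM, and without UN 3 the call was lost.

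Of the members that fell in UT, Fzd4 was at 8.88 to 61.5 CPM in UN (median 25.6), below the U range in 6 of 7 libraries (-1.09 ± 0.50, adjusted p = 0.147), and was called lower without UT 9, without UN 9 or with only both groups in the fit (adjusted p from 0.042 to 0.0973). Wnt5a (-0.90 ± 0.48, adjusted p = 0.213) and Rspo3 (-0.66 ± 0.67, adjusted p = 0.526) were each below the U range in 5 of 7.

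Left out together, UN 2 and UN 6 changed which members were called: Fzd6 (1.19 ± 0.34, adjusted p = 0.0236), Wnt7b (1.38 ± 0.40, adjusted p = 0.0269) and Dkk3 (1.40 ± 0.30, adjusted p = 0.00413) then rose as well. When the ureters of a mouse were summed into 1 library per mouse and group, which left 3 U samples, the fold changes were similar (2.95 for Wnt2 and 2.75 for Wnt4) but none of the 6 was called (adjusted p from 0.101 for Wnt2 to 0.362 for Wnt7a). In the same summed fit 12 members were called in UT against U, a count given without the share of all genes called. Among them were Wnt4, Wnt10a, Wnt2, Frzb, Rspo3 and Wnt5a, whereas Dkk3, Wnt7b, Wnt9a and Wnt2b lost their calls (adjusted p from 0.104 for Dkk3 to 0.203 for Wnt7b).

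**Figure D4:**
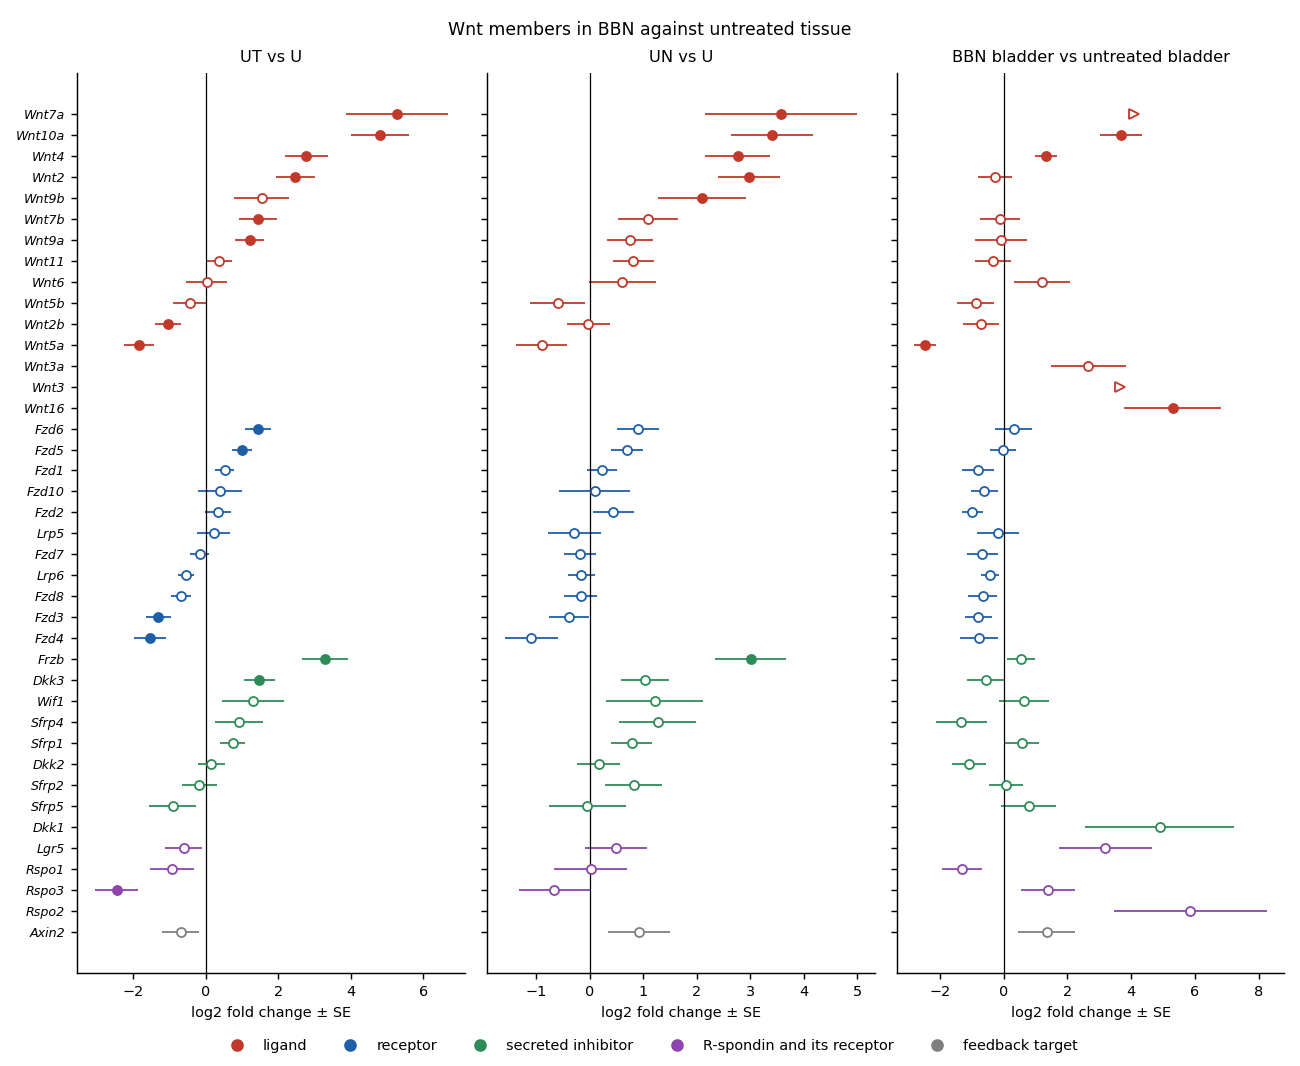
log2 fold change with its standard error of every tested member in UT against U, UN against U and BBN against untreated bladder, with members coloured by role. Filled points were called. Open triangles are lower bounds for genes with no count in untreated bladder, and they are open whether or not the gene was called, as Wnt7a was. Wnt10a and Wnt4 are filled in all 3 panels, and Wnt5a is filled on the left side in the outer panels.

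All 11 UT libraries were compared with the 7 UN libraries to separate cancer from BBN exposure; UN came from 7 of the 10 UT mice, the fit did not pair them, and both groups also entered the comparisons above. Rspo3, Axin2 and Wnt2b were called lower in UT and no member higher (0 by edgeR, 1 with an unadjusted p below 0.05, 1 by DESeq2 and 0 by limma-trend), against 5.52% of all genes called, 1.32% higher and 4.2% lower. The members' median was -0.10 and that of all genes -0.02. Rspo3 was at 2.1 to 13.1 CPM in UN (median 4.66), and UT was lower than UN in 6 of 7 mice (log2 fold change -1.79 ± 0.58, adjusted p = 0.0858, edgeR). Wnt2b was at 0.548 to 2.29 CPM in UN (median 1.17) and lower in UT in 7 of 7 mice (-1.03 ± 0.35, adjusted p = 0.0967). Members that were higher in both ureters than in U were not called between them: Wnt4 differed by 0.01 ± 0.48 (adjusted p = 0.99), Frzb by 0.29 ± 0.52 (adjusted p = 0.744) and Wnt10a by 1.40 ± 0.60 (adjusted p = 0.158).

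The 3 calls were unstable. Axin2 was at 14.3 CPM in UN 6 and at 1.0 to 4.37 CPM in the other 6 UN libraries, and without UN 6 its log2 fold change moved from -1.61 ± 0.50 (adjusted p = 0.0804) to -0.29 ± 0.30 (adjusted p = 0.585). Rspo3 and Wnt2b were not called without UN 6 either (-1.72, adjusted p = 0.218, and -0.70, adjusted p = 0.268). With the mouse as a block, none of the 3 was called (adjusted p = 0.799 for each), although all 3 kept their direction (Rspo3 -2.41 ± 0.68, Wnt2b -1.35 ± 0.38). Axin2 was lower in UT than in UN in 6 of 7 mice. Over all genes, leaving out 1 library moved the number called from 864 to between 5 and 1854.

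In the bladder, where BBN had been given to the same mice, the comparison again showed more Wnt10a, Wnt4 and Wnt7a and less Wnt5a. Wnt16 was also higher there, and in the ureters it was too scarce to test. Its median was 0.0348 CPM in U, 0 in UN and 0.296 in UT. Of the UT libraries 5 of 11 exceeded every U library, and of the UN libraries 2 of 7. Of 39 members tested, 4 were called higher and 1 lower, against 13.3% of 18050 genes called, 7.61% higher and 5.74% lower, so the share was near the background. Wnt10a and Wnt5a stayed called whichever single library was left out, whereas Wnt4 and Wnt7a lost their calls without any 1 of the 3 untreated bladders (adjusted p from 0.103 to 0.172 and from 0.106 to 0.109) and Wnt16 without untreated bladder 1 or 3 (adjusted p = 0.189 and 0.191). By DESeq2 11 members were called higher, these 4 included, a count given without the share of all genes called by DESeq2. The members' median log2 fold change was -0.08 and that of all genes 0.25. Tissue markers moved with BBN in the bladder: urothelial markers summed to 20235 to 21124 CPM untreated and 1092 to 8941 after BBN, smooth muscle markers to 9030 to 10907 and 992 to 7490, and fibroblast markers (8 genes) to 5182 to 7560 and 758 to 5565 (medians 6517 and 1453). Within the urothelial list, the mean CPM of the uroplakins, Krt8, Krt18 and Trp63 was lower after BBN. Krt5 (552 untreated and 1167 after BBN) and Epcam (183 and 441) were higher, and Cdh1 (706 and 716) changed little. The urothelial and smooth muscle sums did not overlap between the groups. The part of these tissues in the member results was not tested.

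Wnt10a was at 2.37, 4.00 and 3.79 CPM in untreated bladders 1, 2 and 3 and at 6.75 to 85.8 CPM in BBN bladders (median 31.9). No BBN bladder reached down to the untreated ones (3.68 ± 0.65, adjusted p = 0.00218; 3.98 without the 3 low-total bladders). Wnt5a was at 180, 174 and 178 CPM untreated and at 8.99 to 52.9 CPM after BBN (median 29.0). The groups were far apart (-2.46 ± 0.34, adjusted p = 0.000325; -2.21 without the low-total bladders). Wnt4 was at 51.3, 39.2 and 41.3 CPM untreated and at 45.1 to 153 CPM after BBN (median 81.9), with 9 of 10 BBN bladders above all untreated ones (1.34 ± 0.34, adjusted p = 0.0216; 1.40 without them).

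Wnt7a had no count in any untreated bladder and 123 counts over the 10 BBN bladders, 9 of which held it. Set against a floor of 3 counts over the untreated group, it was at least 16.9-fold higher. Wnt16, a ligand of keratinocytes and bone, had 2 counts in untreated bladder and 152 in BBN bladder, a ratio of summed CPM of 31.4 (95% interval 8.54 to 262, counting error only). Wnt16 was at 0, 0.133 and 0 CPM untreated and at 0.265 to 3.44 CPM after BBN (median 1.05), without overlap (adjusted p = 0.0396, edgeR), and both ligands stayed called without the low-total bladders (adjusted p = 0.0353 for Wnt16 and 0.00261 for Wnt7a). Both passed the filter on low counts only through the BBN bladders, where they were high, so these p-values add no support beyond the counts. In that fit Wnt3a also rose, and Fzd2 and Fzd3 fell.

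Lgr5 and Axin2 were among the 7 members higher in all 3 low-total bladders. Lgr5 was at 14.7 to 36.3 CPM in BBN bladders 1, 3 and 4 and at 0.813 to 4.54 CPM in the other 7; untreated bladders were at 1.86, 1.84 and 0.857 CPM. Its log2 fold change was 3.19 ± 1.47 with all bladders (adjusted p = 0.163) and 0.59 ± 0.62 without the 3 (adjusted p = 0.531). Axin2 was at 2.94 to 4.42 CPM in those 3 and at 0.271 to 2.05 CPM in the other 7, and its value moved from 1.34 to 0.23. UN 6, the only other library under 9000000 counts, was likewise the highest UN library for both genes, with Lgr5 at 11.2 CPM. The other members of the 7 were Rspo3 and the elsewhere scarce Rspo2, Dkk1, Dkk4 and Wnt8b, whereas Wnt7b (3.37 to 13.7 against 33.5 to 134 CPM) and Fzd6 (8.43 to 16.6 against 32.1 to 170 CPM) were lower.

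**Figure D5:**
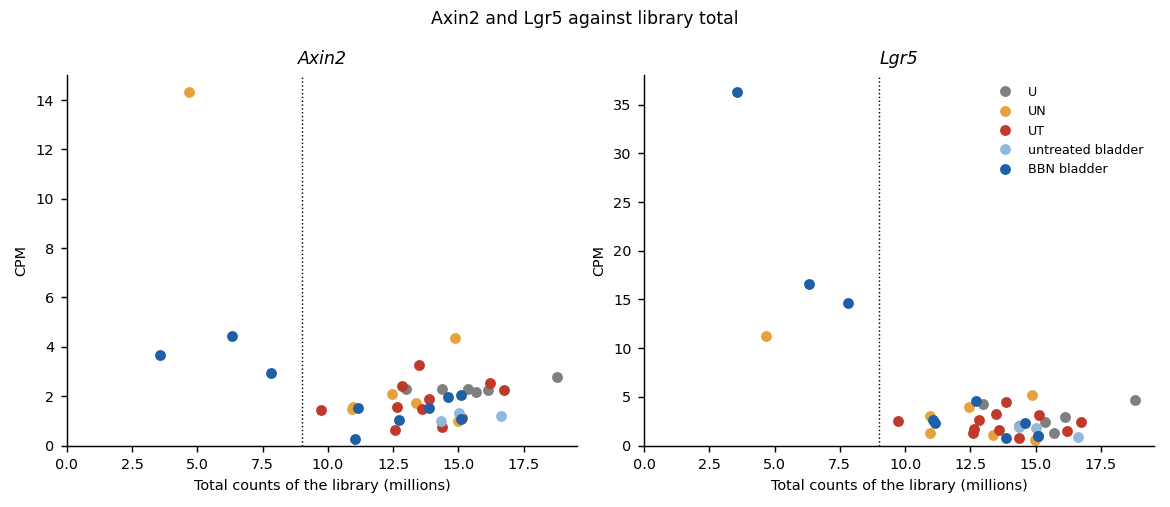
CPM of Axin2 and Lgr5 (vertical axes) against the total count of each library, coloured by group, with a dotted line at 9000000 counts. The 4 libraries left of the line hold the highest Lgr5 values, and UN 6 the highest Axin2 value of 14.3 CPM.

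The untreated ureter and bladder of the same 3 mice differed in 57.6% of the members tested. Untreated bladder held more of 7 of the 10 ligands tested (9 were too scarce to test) and more of the inhibitors Frzb and Dkk3, whereas U held more Rspo3, Fzd4, Axin2, Lgr5, Sfrp4 and Sfrp5. Of 33 members tested, 6 were higher and 13 lower in U, against 30% of 15318 genes called, 15.7% higher and 14.3% lower. The members' median was -0.39 and that of all genes -0.02. Urothelial markers were higher in bladder, with the values given above, and adipocyte markers, at 18.84 to 372 CPM in untreated bladder, were higher in U. Smooth muscle markers (9030 to 10907 CPM) and fibroblast markers (5182 to 7560 CPM) were also higher in bladder than in U (1739 to 3258 and 1732 to 3331 CPM), without overlap, and the part of these tissues was not tested.

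Of the tested members Wnt2 differed most. It was at 33.6, 33.5 and 27.2 CPM in the bladders and at no more than 1.81 CPM in U (log2 fold change -4.36 ± 0.21, adjusted p = 1.88e-08, edgeR). Wnt4 was lower in U by -2.34 ± 0.16 on the log2 scale (adjusted p = 1.44e-07), Wnt7b by -2.1 ± 0.18 (70.8, 71.2 and 72.5 CPM in bladder) and Frzb by -2.08 ± 0.21 (15.9, 11.1 and 11.3 CPM in bladder). None of these 4 genes overlapped between the organs. Fzd10, at 6.48, 7.26 and 5.36 CPM in bladder and at most 1.85 CPM in U, had the largest difference of the 11 receptors tested (-2.24 ± 0.39, adjusted p = 0.000389). Fzd9, too scarce to be tested, had 48 counts over U and 2 over bladder, a ratio of summed CPM of 11.8 (95% interval 3.10 to 100.4, counting error only). In the other direction, Rspo3 was at 1.25, 3.0 and 1.38 CPM in bladder (2.61 ± 0.30, adjusted p = 1.06e-05), Fzd4 at 16.3, 22.6 and 19.7 CPM (2.02 ± 0.20, adjusted p = 2.78e-06) and Axin2 at 0.976, 1.33 and 1.2 CPM (1.37 ± 0.23, adjusted p = 0.000257). All 6 U libraries exceeded all 3 bladders for each of these 3 genes. Sfrp4 was at 24.7, 31.8 and 14.8 CPM in bladder and overlapped U (1.33 ± 0.30, adjusted p = 0.00237). Sfrp5 was at 0.627, 4.13 and 0.662 CPM in bladders 1, 2 and 3 and at 2.71 to 3.97 CPM in U, so that bladder 2 exceeded every U library, and its call (1.32 ± 0.50, adjusted p = 0.037) was lost without bladder 1 or 3 (0.93 and 0.91) and its value was 2.79 without bladder 2. With library totals only, the calls of Axin2, Lgr5, Sfrp4 and Sfrp5 were lost, at log2 fold changes of 0.94 to 0.996, and those of Rspo3 and Fzd4 were kept.

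Whether BBN changed a member differently in the ureter without cancer and in the bladder was tested with an interaction term. Wnt2 and Frzb were called, and no other member of the 42 tested, against 2.06% of 18786 genes called, 1.51% higher and 0.548% lower. No member was called lower (0 by edgeR and by DESeq2, 2 with an unadjusted p below 0.05). Wnt2 rose in UN and was not called in BBN bladder, where it was at 7.19 to 60.2 CPM (median 13.6; log2 fold change -0.27 ± 0.52, adjusted p = 0.759), and the difference between the 2 effects was 3.23 ± 0.72 on the log2 scale (adjusted p = 0.0192). Frzb, at 6.52 to 46.9 CPM in BBN bladder (median 11.1), differed by 2.46 ± 0.64 (adjusted p = 0.0509), and its call was lost with the mouse as a block (adjusted p = 0.104). Without the 3 low-total bladders and UN 6 the differences were 3.16 for Wnt2 (adjusted p = 0.0231) and 2.47 for Frzb (adjusted p = 0.00847), and Wnt2 in BBN bladder was at -0.09 (adjusted p = 0.928). Wnt10a, which rose in both organs, gave an interaction of -0.27 ± 0.98 (adjusted p = 0.941).

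The rest of the pathway was read from a list of 67 genes, of which 64 were tested. In UT against U 11 were called higher and 8 lower, 29.7% of those tested against 30.9% of all genes. In UN against U 4 were called, all of them higher (6.25% against 13.7%), and in BBN bladder 2 higher and 6 lower (12.5% against 13.3%). Without the 3 low-total bladders 5 were higher and 9 lower there (22.2% against 20.3%). These shares were near or below those of all genes, and the genes below are given as single values.

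In UT the called genes were 4 higher of 5 widely used targets, 3 higher of 10 planar polarity genes, 2 higher and 2 lower of 13 nuclear factors, 2 higher and 1 lower of 9 genes of receptor turnover, 2 lower of 19 cytoplasmic genes and 3 lower of 8 genes of ligand export and extracellular control. Celsr1, a cadherin of planar polarity, rose most (3.83 ± 0.64, adjusted p = 0.000131), from a median of 1.14 CPM in U to 14.3 in UT, and it also rose in UN (2.25 ± 0.62, adjusted p = 0.0201) and in BBN bladder (4.28 ± 0.56, adjusted p = 0.000189; 4.48 without the low-total bladders). The cell cycle gene Ccnd1 (2.74 ± 0.39, adjusted p = 3.8e-05) and the adhesion receptor Cd44 (1.94 ± 0.37, adjusted p = 0.00037) are widely used as targets, although other pathways also drive them. Tcf7 (1.97 ± 0.57, adjusted p = 0.00774), a TCF/LEF factor which T cells also express, rose beside leukocyte markers (8 genes) of 201 to 1040 CPM in UT and 127 to 230 CPM in U; the part of leukocytes was not tested.

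Of the genes that fell in UT, the R-spondin receptor Lgr6 (-2.66 ± 0.71, adjusted p = 0.00447) and the nuclear cofactor Pygo1 (-2.46 ± 0.52, adjusted p = 0.000805) had the largest changes. Notum, an enzyme that removes the lipid from Wnt proteins (-1.997 ± 0.57, adjusted p = 0.00692), and Nkd1, a Dishevelled antagonist (-1.74 ± 0.40, adjusted p = 0.00156), also fell, and both fell in BBN bladder (-2.18 ± 0.71, adjusted p = 0.072, and -1.53 ± 0.41, adjusted p = 0.0277; -1.97 and -1.26 without the low-total bladders, both still called). The other called genes of ligand export were the glypican Gpc3 (-1.69 ± 0.68, adjusted p = 0.0463) and the membrane inhibitor Apcdd1 (-1.17 ± 0.32, adjusted p = 0.00551). Further genes that restrain the pathway, named after their values were seen, were not called and lay on both sides of 0: Apc2 was at -0.95 ± 0.46 (adjusted p = 0.0935), Apc at 0.62 ± 0.25 (adjusted p = 0.0447), Kremen1 at 0.80 ± 0.35 (adjusted p = 0.0703), Axin1 at 0.44 ± 0.30 (adjusted p = 0.233) and Rnf43 at 0.52 ± 0.53 (adjusted p = 0.434).

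The 12 members left out of the ureter tests were scarce, and Wnt1, Wnt8a and Rspo4 reached at most 1.12 CPM in any library. Wnt3a had 2 counts over the 6 U libraries, 49 over UN and 103 over UT, ratios to U of 27.8 (95% interval 7.30 to 236) and 31.8 (8.58 to 266), which cover counting error only and take no account of the spread between mice. The adjacent ligands Wnt3a and Wnt9a (16176 bases apart), Wnt9b and Wnt3 (24329) and Wnt10b and Wnt1 (11707) do not overlap in the annotation.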

How the data were processed

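RNA from ureters and bladders was made into libraries with SMARTer HT and Nextera XT kits and sequenced as pairs. Per the submitters' processing notes, TopHat2 2.1.1, Cuffdiff 2.2.1 and the build GRCm38/mm10 were used; the counting tool, its annotation and its use of strand are not given in the sources used here. The authors deposited 1 table of estimated counts per gene symbol (21.1% of values above 0 are not whole), unnormalized, with 37 libraries.

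Counts were rounded and tested with edgeR 4.0.16 (TMM, filterByExpr, quasi-likelihood test; R 4.3.3) over all genes, with Benjamini-Hochberg adjustment; UT, UN and U shared 1 fit. A gene was called at an adjusted p below 0.1 and a fold change of at least 2, the study's thresholds. DESeq2 1.42.0, limma 3.58.1 (limma-trend, mouse as random effect), other scalings and left-out libraries were alternatives. All labelled libraries were kept, including all 11 of UT, of which the study's text counts 10, and BBN bladder 6, whose library name carries a tumor letter. Gene positions and exon lengths came from GENCODE vM21, in which all 47 members were found. Scripts were tested on simulated data. No 2 libraries were copies.

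Named members were the 4 called with the largest fold change in each direction per comparison, the most abundant member of each role, Axin2 and Lgr5; other called members could be named. The members, the lists and the pathway genes were chosen with earlier results of these data known. Same-numbered libraries of 1 treatment come from the same mouse; deviations from the group means of UT and UN of a mouse had a median correlation of 0.04 (7 mice), against -0.01 between mice. Intervals and floors (3 counts) cover counting error only.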

Additional observations from a re-analysis of the deposited data

Results flagged for a closer look

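Among 57 groups of named members examined on the log2(CPM + 0.5) scale (U, UN and BBN bladder), 6 had a library far from the rest by Dixon's test, which flags about 1 in 20 groups by chance. In UN 6, Frzb was at 1.07 CPM with the nearest UN library at 10.3, and Wnt16 was at 1.497 CPM with the nearest at 0.401. UN 3 held Wnt7a at 3.27 CPM (next 0.605) and Fzd3 at 2.27 CPM (next 8.46). Wnt7b was at 0.183 CPM in UN 2 (next 11.6), the library with few urothelial transcripts. Axin2 was at 2.77 CPM in U 2R (next 2.31), a small gap within a narrow group. The effect of BBN differed between the ureter without cancer and the bladder for Wnt2 (log2 difference 3.23) and Frzb (2.46), by the interaction test of edgeR.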

How the results depend on the processing

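The counts of members for UT against U (10 higher, 5 lower) stayed within 1.5 times under every alternative run, from 9 to 12 higher and from 4 to 6 lower when 1 library was left out. For UN against U, leaving out 1 library gave 4 to 9 higher and 0 to 1 lower. With the ureters of a mouse summed 0 were higher, and 1 was lower (Fzd4) without UT 9, without UN 9 or with only both groups in the fit. For UT against UN the lower count of 3 ran from 0 to 6 and the higher count of 0 from 0 to 2; the lower count was 0 with library totals only, without libraries under 9000000 counts, with only both groups in the fit, with the replicate block (mouse) or without UN 2 and UN 6, and 1 with limma-trend, and the higher count was 1 (Wnt10a) by DESeq2, without UT 9 or without UT 4 and UT 9. Leaving out any 1 library lost the call of Wnt2b in 20 of 24 fits, Rspo3 in 15 and Axin2 in 8.

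In the bladder the higher count of 4 ran from 1 to 5, with 1 or 2 when any untreated bladder was left out, and was 11 by DESeq2; the lower count of 1 ran from 1 to 2 and was 3 with library totals only or without libraries under 9000000 counts and 2 without the filter on low counts or without BBN bladder 6. For U against untreated bladder, library totals only left 2 of 6 higher, and no other count moved by over 1.5 times. The interaction count of 2 ran from 1 to 3, and with the replicate block (mouse) 1 member (Rspo3) was lower; the block left the U against untreated bladder counts at 6 and 13.

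In UN against U, Axin2 and Lgr5 reversed. Over single left-out libraries Axin2 ran from -0.44 (without UN 6) to 1.11 and Lgr5 from -0.51 (without UN 6) to 0.69; without libraries under 9000000 counts they were at -0.44 and -0.51, without UN 2 and UN 6 at -0.44 and -0.44, and Lgr5 was at -0.095 by limma-trend. Library totals only moved the median of all genes by 0.28 for UT against U, 0.22 for UT against UN, -0.28 for BBN bladder, -0.38 for U against untreated bladder and 0.35 for the interaction, and DESeq2-type size factors by 0.10 and -0.15 for BBN bladder and the interaction. Leaving out UN 2 with UN 6, or UT 4 with UT 9, and library totals only were chosen after seeing the data. The causes were not tested, and the member counts under the alternatives are given without the share of all genes called. The 3 untreated mice limit every comparison with untreated tissue.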

Other observations

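Both ureters of mouse 9 were nearer to U than most BBN ureters in several members, but not in all. In UT 9 and UN 9, Wnt4 was at 8.88 and 14.1 CPM, Wnt10a at 4.19 and 3.07, Wnt2 at 1.03 and 2.69, and Fzd4 at 68.9 and 61.5. UT 9 had the lowest Wnt4, Wnt10a, Wnt2 and Wnt7b and the highest Fzd4 of the 11 UT libraries. Urothelial markers summed to 1065 and 1369 CPM in these libraries and adipocyte markers to 6600 and 8470 CPM.

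UN 2, with its urothelial markers at 27.0 CPM, split the members. It was the lowest of the 7 UN libraries for Wnt4 (2.63 CPM), Wnt10a (0.274 CPM) and Wnt7b (0.183 CPM). Wnt2 (12.8 CPM) and Frzb (18.83 CPM) were nevertheless inside the range of the other UN libraries, and Sfrp4 (186 CPM) and Rspo1 (12.7 CPM) were near or above its upper end.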
